A study of Mus musculus with 35 samples.

Results

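The 8 genes described here were taken by name from the gene count table, which lists 24480 genes, and all 8 passed the filter on low counts in each comparison. Their products are the inducible HSP70 pair (Hspa1a, Hspa1b), constitutive HSC70 (Hspa8), both cytosolic HSP90 proteins (Hsp90aa1, Hsp90ab1), the small heat shock protein HSP25 (Hspb1), and the J-domain partners of HSP70 (Dnaja1, Dnajb1).

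Heat shock proteins are molecular chaperones that bind unfolded proteins, and their genes are switched on by heat shock factor 1 (HSF1) when proteins misfold. The HSP70 proteins hold and refold clients in cycles driven by ATP, the J-domain proteins deliver clients and start the cycle, HSP90 matures kinases and receptors at a later step, and small heat shock proteins keep clients soluble. In the mouse, Hspa1b and its copy Hspa1a are known as genes transcribed at the very start of embryonic genome activation, and Hspa8, Hsp90aa1 and Hsp90ab1 are known as abundant chaperone transcripts of the egg.

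The samples were 35 wild-type C57BL/6NRj mouse embryos or small pools of blastomeres, each sequenced as total RNA. They comprised 10 water-injected control zygotes, 10 zygotes injected with Kdm5b-yfp mRNA at about 1150 ng per µl, 9 water-injected control 2-cell (2C) samples and 6 Kdm5b-yfp mRNA-injected 2C samples. KDM5B is a demethylase of histone H3 lysine 4, and the mRNA carried a YFP tag. No sample received another mRNA as a control, so injection of RNA as such and KDM5B cannot be told apart. Zygotes were collected 17 h after ovulation and 2C embryos 5.5 to 8 h after division, both 5 to 6 h after injection. The authors place both times before the usual onset of major embryonic genome activation. Zygotes for the 2C groups had been cryopreserved and thawed, and libraries of the stages were made on separate days. Stage can therefore not be told apart from thawing or library day in any value below, and the table holds no spike-in, so every level is a share of the sample's own RNA.

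Totals were 11627845 to 17797581 counted fragments in zygotes and 8705584 to 13117592 in 2C samples. Of the 2C samples, 3 control samples were pools of single blastomeres from 2 or 3 embryos, as was 1 Kdm5b sample. By library index number, 3 control and 5 Kdm5b 2C samples fell into strip 11 (8 consecutive index numbers), and 6 control and 1 Kdm5b sample into strip 12. Stage labels were checked against marker genes: the summed level of 21 genes known from the 2-cell stage was 28.6 to 143 TPM (transcript level scaled to gene length and library, without the Kdm5b row) in control zygotes and 424 to 1971 TPM in control 2C samples. The summed level of 12 oocyte markers had a median of 13488 TPM in control zygotes and 8857 TPM in control 2C samples. Of these 12 maternal genes 5 fell past both thresholds between the stages in controls, with Ooep at -1.81, Padi6 at -1.81 and Nlrp5 at -1.60 on the log2 scale and a list median of -0.91. The summed level of 12 cumulus and granulosa cell markers was 3.03 to 15.4 TPM in zygotes and 4.33 to 23.9 TPM in 2C samples, with Amh and Inha at 0 in all 2C samples. The part of these cells in any value was not tested.

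In zygotes the members spanned a wide range of TPM levels. TPM divides by the whole exon length, while fragments from stretches that recur in other genes can go uncounted. Of a member's 91-base stretches, 58.5% recur for Hspa1a, 52.0% for Hspa1b, 44.9% for Hspb1, 39.9% for Hsp90aa1 and 0% for Hsp90ab1 and Dnajb1. The order of the members and their shares of the sum, here and in 2C samples, carry this limit. In control zygotes Hsp90aa1 had a median of 2539.97 TPM, followed by Hsp90ab1 at 835 TPM, and neither overlapped with the next member in the order. Dnaja1 (251 TPM) and Hspa8 (225 TPM) had overlapping ranges, with Dnaja1 the higher in 5 of 10 zygotes, and Dnajb1 stood at 184 TPM. The stress-inducible members were scarce, at 22.4 TPM for Hspa1b, 6.63 TPM for Hspb1 and 2.21 TPM for Hspa1a. The order was the same in Kdm5b zygotes. Hsp90aa1 alone made up a median of 63.03% of the summed TPM of the 8 genes in control zygotes and ranked 24.5 among all genes (median over samples).

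The order of TPM levels differed in control 2C samples, where Hsp90ab1 (529 TPM) and Hsp90aa1 (467 TPM) overlapped and Hsp90ab1 was the higher in 4 of 9 samples. Dnajb1 (108 TPM) and Hspa8 (97.5 TPM) lay above Dnaja1 (56.7 TPM) in the 2C groups. The summed TPM of the 8 genes had a median of 4076 in control zygotes and 1317 in control 2C samples, with 3671 and 980 in the Kdm5b groups. The highest 2C sum, 2667 TPM in a control sample, lay under the lowest zygote sum of 3284 TPM.

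**Figure D1:**
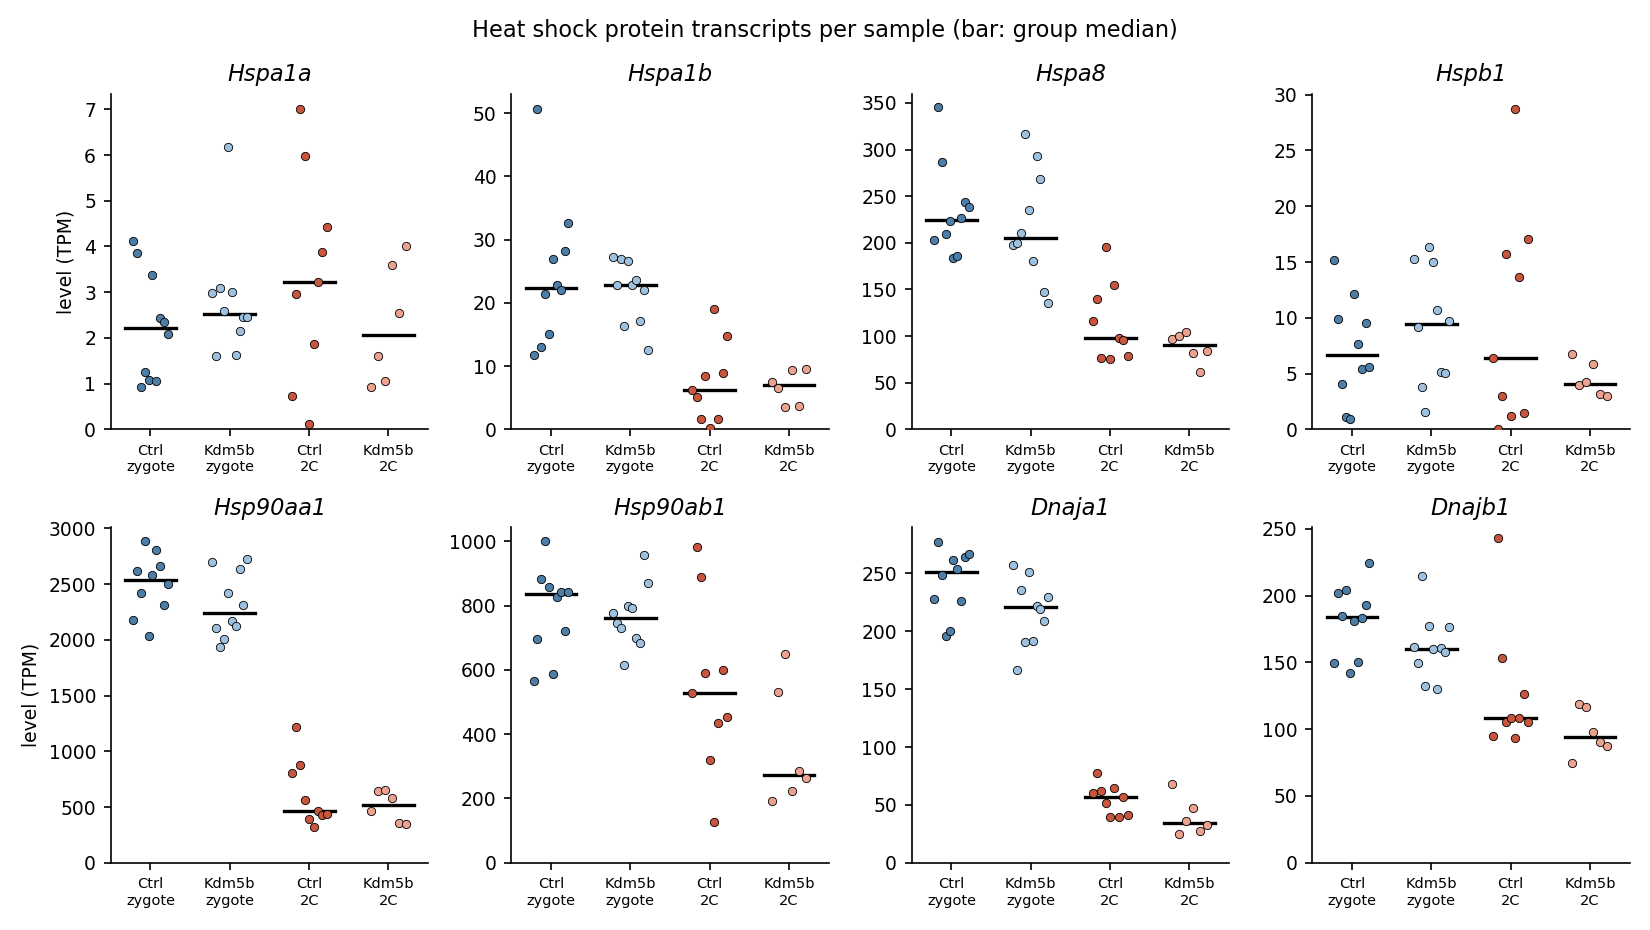
Level of each of the 8 heat shock protein transcripts in TPM (vertical axis, linear, from 0, with its own range per gene) in every sample of the 4 groups, with a bar at the group median. Dnaja1 and Hsp90aa1 of 2C samples lie below all zygotes of the same injection, while Hspa1a and Hspb1 overlap between the stages.

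The first question was whether these transcripts differ between zygotes and early 2C embryos, and no rise of a member in 2C samples passed a test. In controls, 3 of the 8 fell past both thresholds (adjusted p under 0.05 and a change of more than 1 on the log2 scale): Dnaja1, Hsp90aa1 and Hspa1b. Of the 11968 genes tested in that comparison by edgeR's quasi-likelihood test, 13% were lower by both thresholds and 9.2% higher, a category that held 0 members. By adjusted p alone 5 members were lower, against 25.4% of all genes, and 0 were higher, against 26.8%. No member was higher at an unadjusted p under 0.05 or by DESeq2 either. The median change of the 8 was -0.69 on the log2 scale, and that of all genes was 0.02.

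In Kdm5b-injected embryos, which share no sample with the controls, 5 members fell past both thresholds: Dnaja1, Hsp90aa1, Hspa1b, Hspa8 and Hsp90ab1. Of the 12390 genes tested there, 16% were lower by both thresholds and 10.5% higher, with 0 members among the latter. By adjusted p alone 6 members were lower (29.5% of all genes) and 0 higher (29.3%), also at an unadjusted p under 0.05. The median change was -1.10 over the members and 0.01 over all genes. Bulk fragment counts cannot tell a lower number of transcripts per embryo from a larger pool of other RNA.

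**Figure D2:**
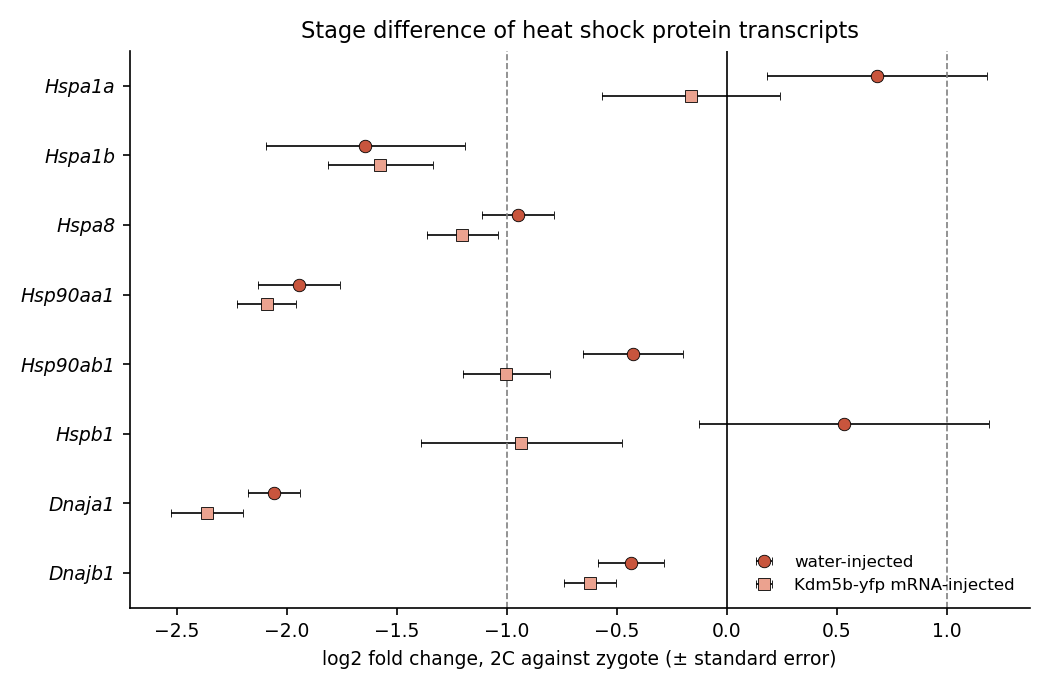
Log2 fold change of each member between 2C samples and zygotes (horizontal axis), with its standard error, for water-injected (circles, 9 against 10 samples) and Kdm5b-yfp mRNA-injected embryos (squares, 6 against 10). Dashed lines mark a change of 1. Dnaja1, Hsp90aa1 and Hspa1b lie left of -1 in both, while the signs of Hspa1a and Hspb1 differ between the injections within large errors.

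The HSP90 genes came first in abundance. Hsp90aa1 encodes the stress-responsive cytosolic HSP90 and lies on chr12:110691036-110696395 (minus strand, GRCm38). Its levels were 2038 to 2884 TPM (median 2539.97) in control zygotes and 320 to 1218 TPM (median 467) in control 2C samples. All 9 control 2C samples lay below all 10 zygotes, a separation that Dnaja1 shared and that 15.2% of the 9204 genes with a mean of at least 50 fragments showed. The difference was -1.95 ± 0.19 (SE) on the log2 scale, a 3.85-fold fall (edgeR adjusted p = 3.94e-09). In Kdm5b embryos the levels were 1936 to 2726 TPM in zygotes and 352 to 650 TPM in 2C samples, again with no overlap. The difference there was -2.09 ± 0.13 (adjusted p = 6.47e-12).

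Hsp90aa1 also differed among control 2C samples. The 3 of strip 11 held 808 to 1218 TPM and the 6 of strip 12 held 320 to 567 TPM, with no overlap, and both sets lay under every zygote. The control pools of blastomeres were all in strip 12, and whether strip or another property of the embryos goes with the level was not tested.

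Hsp90ab1 encodes the constitutive cytosolic HSP90 and lies on chr17:45567778-45573261 (minus strand). It ranged from 567 to 1001 TPM in control zygotes and from 127 to 981 TPM in control 2C samples, where 7 of 9 samples lay under the zygote median and the groups overlapped. The difference of -0.43 ± 0.23 did not pass (adjusted p = 0.116). By adjusted p alone in edgeR it passed with no filter on low counts (-0.52, adjusted p = 0.0440). It also passed without control 2C replicate 2 (-0.58, adjusted p = 0.0287) or 3 (-0.55, adjusted p = 0.0442). With the replicate number as a block it passed too (-0.58, adjusted p = 0.0283), though same-numbered samples were not taken as pairs. In Kdm5b embryos it ranged from 615 to 958 TPM in zygotes and from 192 to 649 TPM in 2C samples, 5 of 6 of which lay below every zygote. The difference there was -1.003 ± 0.20 (adjusted p = 1.18e-04), which lay just past the fold threshold and under it with DESeq2's size factors (-0.96). Within control 2C samples Hsp90ab1 varied more than most genes, with an SD of 0.88 on the log2 CPM scale against a median of 0.46 over 9204 genes.

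The J-domain members differed from each other in the size of their fall. Dnaja1, whose product delivers clients to HSC70, lies on chr4:40722468-40734965 (plus strand). Its levels were 196 to 277 TPM (median 251) in control zygotes and 39.7 to 77.4 TPM (median 56.7) in control 2C samples. The groups did not overlap, and the difference of -2.06 ± 0.12 was a 4.17-fold fall (adjusted p = 1.24e-12). In Kdm5b embryos the levels were 166 to 257 TPM in zygotes and 25.0 to 68.1 TPM in 2C samples, with a difference of -2.36 ± 0.16 (adjusted p = 2.09e-11). Dnaja1 had a small spread in the controls, with an SD of 0.18 on the log2 CPM scale in zygotes and 0.32 in 2C samples. The SD was 0.19 in Kdm5b zygotes and 0.51 in Kdm5b 2C samples, where the median over 9204 genes was 0.38.

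Dnajb1 encodes HSP40, the J-domain partner of inducible HSP70, and lies on chr8:83608175-83612653 (plus strand). Control zygotes held 142 to 224 TPM (median 184) and control 2C samples 93.4 to 243 TPM (median 108). In 7 of 9 control 2C samples the level was below every zygote, while 1 sample, replicate 2, was above every zygote. The difference of -0.44 ± 0.15 passed by adjusted p alone (0.0167), and without replicate 2 it was -0.61 (adjusted p = 5.63e-05). With single intact embryos only, which leaves out the 3 control pools, it was -0.39 and did not pass (adjusted p = 0.0804). In Kdm5b embryos levels were 130 to 215 TPM in zygotes and 74.7 to 119 TPM in 2C samples, with no overlap and a difference of -0.62 ± 0.12 (adjusted p = 7.30e-05). The separation of all 2C samples from all zygotes held for 5 members in Kdm5b embryos (Dnaja1, Dnajb1, Hsp90aa1, Hspa1b and Hspa8) and for 23.8% of the 9204 genes. A separation of 6 from 10 samples is easier to reach than one of 9 from 10.

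Hspa8, the constitutive HSP70 of the cytosol, lies on chr9:40801273-40805199 (plus strand) and overlaps the small nucleolar RNA genes Snord14c, Snord14d and Snord14e on the same strand. Levels were 184 to 346 TPM (median 225) in control zygotes and 75.6 to 196 TPM (median 97.5) in control 2C samples. In 8 of the 9 control 2C samples the level was below every zygote. The difference of -0.95 ± 0.16 passed by adjusted p (2.46e-05) and not by fold. With no filter on low counts it was -1.05, past both thresholds. In Kdm5b embryos levels were 135 to 317 TPM in zygotes and 61.04 to 104 TPM in 2C samples, with a difference of -1.20 ± 0.16 (adjusted p = 6.35e-07).

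The inducible HSP70 pair lies side by side on chromosome 17 as genes of a single exon on the minus strand, Hspa1a on chr17:34969359-34972156 and Hspa1b on chr17:34956429-34959238. Their proteins are near identical, and so are their promoters. The 150 bases before each start (RefSeq, GRCm38.p6, minus strand) are shown because they differ at 1 position only, and because they hold the building block of the HSF1 site. Capitals mark the inverted pair of GAA units 2 bases apart, GAANNTTC, at 104 to 97 bases before the start in both. Hspa1a is chr17:34972157-34972306 and Hspa1b is chr17:34959239-34959388.
Hspa1a: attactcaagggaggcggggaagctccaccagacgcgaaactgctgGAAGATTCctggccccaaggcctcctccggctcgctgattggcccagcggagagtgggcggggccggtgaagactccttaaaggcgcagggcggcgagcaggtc
Hspa1b: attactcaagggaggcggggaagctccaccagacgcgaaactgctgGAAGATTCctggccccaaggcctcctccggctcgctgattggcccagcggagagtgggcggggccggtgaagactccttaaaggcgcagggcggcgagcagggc

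Of 250 bases before the start, 247 were identical between Hspa1a and Hspa1b. The table of promoters matched 5 of the 8 members, with 8 start sites, and named none for Hspa8, Hsp90aa1 and Hsp90ab1. The pair GAANNTTC or TTCNNGAA (both strands are covered by these letters) occurred in the 250 bases before 12.8% of 32851 start sites in the mouse table, or for 14.5% of gene symbols. It was found at 4 of the 8 start sites, 1 in each of 4 of the 5 matched members, and Dnajb1 had no match at either of its starts. The full heat shock element of 3 alternating units (GAANNTTCNNGAA or TTCNNGAANNTTC, each of which contains the pair) was found at 0.4657% of all start sites and before none of these members in its exact letters. TATAAA was found at 12.4% of all start sites on either strand and before none of them. These are matches of letters and say nothing about binding. Hspb1 held the pair at 2 places and Dnaja1 at 1 place before the first of its 3 starts, shown with the same capitals for comparison (Hspb1 chr5:135887769-135887918 and Dnaja1 chr4:40722318-40722467, both on the plus strand).
Hspb1: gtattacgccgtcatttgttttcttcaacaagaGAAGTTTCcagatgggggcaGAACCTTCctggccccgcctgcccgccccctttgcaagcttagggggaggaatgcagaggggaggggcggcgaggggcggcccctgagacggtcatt
Dnaja1: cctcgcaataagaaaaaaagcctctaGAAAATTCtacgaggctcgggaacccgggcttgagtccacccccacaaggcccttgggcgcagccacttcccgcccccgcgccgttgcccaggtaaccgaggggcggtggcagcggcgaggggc

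Fragments of the HSP70 pair are hard to assign. Of the 91-base windows (the read length after trimming) in Hspa1b transcripts, 52.0% also occur in Hspa1a, and 58.5% of those of Hspa1a occur in another gene. By default featureCounts skips fragments with more than 1 alignment, so each gene's count rests on the stretches that differ. Windows of Hspb1 (44.9%), Hsp90aa1 (39.9%), Hspa8 (29.7%) and Dnaja1 (17.3%) also occur in transcripts of other genes, such as Hsp25-ps1 for Hspb1, while those of Hsp90ab1 and Dnajb1 do not.

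Hspa1b was lower in 2C samples. It was counted with 198 to 684 fragments (11.8 to 50.6 TPM) in control zygotes and with 1 to 163 fragments (0.126 to 19.0 TPM) in control 2C samples, of which 7 of 9 lay below every zygote. The difference was -1.64 ± 0.45 (adjusted p = 0.00357), a 3.12-fold fall. The lowest value came from replicate 5, which also had the lowest total and the lowest level of 2-cell genes in its group, and without it the difference was -1.48 (adjusted p = 0.00221). In Kdm5b embryos levels were 12.5 to 27.2 TPM in zygotes and 3.57 to 9.61 TPM in 2C samples, without overlap, and the difference was -1.58 ± 0.24 (adjusted p = 4.11e-06).

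For Hspa1a no stage difference passed. Control zygotes held 14 to 69 fragments (0.915 to 4.13 TPM) and control 2C samples 1 to 72 fragments (0.126 to 7.00 TPM). In 3 control 2C samples the level was above every zygote and in 2 it was below every zygote. The difference of 0.68 ± 0.50 did not pass (adjusted p = 0.265), and in Kdm5b embryos it was -0.16 ± 0.41 (adjusted p = 0.751) with 0.935 to 4.01 TPM in 2C samples and 1.61 to 6.17 TPM in zygotes. With both counts summed, the difference of the pair was -1.22 on the log2 scale in controls (adjusted p = 0.00916) and -1.33 in Kdm5b embryos (adjusted p = 2.53e-05).

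The balance within the pair had a wider range at the 2C stage, as the plot of both counts shows. Hspa1b made up 74.2% to 95.6% of the pair's fragments in control zygotes (median 93.1%) and 81.3% to 93.6% in Kdm5b zygotes. In control 2C samples the share ran from 19.1% to 91.1% (median 63.4%). In 2 of the 9 Hspa1a was the more counted gene, at a share of 19.1% (95% Wilson interval 12.3% to 28.5%, 89 fragments) in replicate 3 and 34.7% (22.9% to 48.7%, 49 fragments) in replicate 7. The share of replicate 5 rests on 2 fragments. In Kdm5b 2C samples it ran from 59.7% to 89.02%. Over both injections 9 of 15 2C samples lay below the lowest of the 20 zygotes. These intervals cover counting error only, since fragments were copied by PCR without molecular identifiers.

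**Figure D3:**
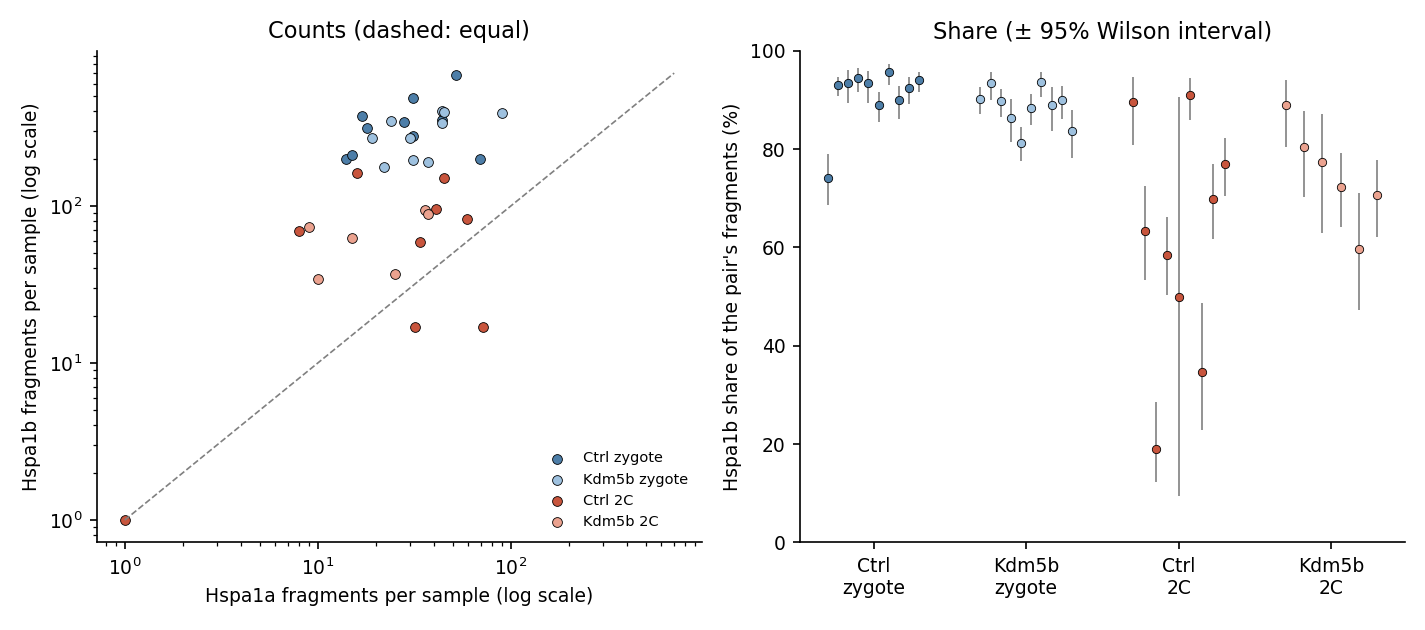
Left, fragments of Hspa1b against those of Hspa1a in each of the 35 samples (both axes logarithmic, dashed line at equality); right, the share of Hspa1b in the pair's fragments in percent with its 95% Wilson interval, by group. All zygotes lie above equality, and 2 control 2C samples lie below it.

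Hspb1, which encodes HSP25 and lies on chr5:135887919-135889563 (plus strand), had the largest spread of the members in both control groups. Control zygotes held 0.887 to 15.2 TPM and control 2C samples 0 to 28.7 TPM. In 1 control 2C sample it was not detected, while 3 lay above every zygote. The difference was 0.53 ± 0.66 (adjusted p = 0.527). In Kdm5b embryos all 6 2C samples (3.03 to 6.76 TPM) lay under the zygote median of 9.42 TPM but within the zygote range of 1.55 to 16.4 TPM, and the difference of -0.93 ± 0.46 did not pass (adjusted p = 0.0833). Its SD on the log2 CPM scale in control 2C samples was 1.95, larger than that of 99.2% of the 9204 genes with a mean of at least 50 fragments. Hspb1 (0 to 79 fragments in these samples) and Hspa1a do not reach that mean themselves. Low counts add to the spread, so this is no rank among genes of like counts. Hspa1b followed with 1.89 and Hspa1a with 1.49. In Kdm5b 2C samples the SD of Hspb1 was 0.39, against a median of 0.38 over the 9204 genes.

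The second question was whether Kdm5b-yfp mRNA changed the members within a stage. In zygotes 0 members passed by adjusted p (0.134% of 11933 genes did), by edgeR and by DESeq2, and 1 of 8, Dnaja1, had an unadjusted p under 0.05 in edgeR. Its level was 196 to 277 TPM in control and 166 to 257 TPM in Kdm5b zygotes, and the difference was -0.15 ± 0.07 (adjusted p = 0.478). For the abundant members the interval of 2 standard errors was narrow, from -0.23 to 0.03 for Hsp90aa1 and from -0.19 to 0.16 for Hsp90ab1, and for Hspb1 it ran from -0.44 to 1.20. A change of 2-fold lay outside the interval for 7 of the 8 members.

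In 2C samples 0 members passed by adjusted p (0.0245% of 12244 genes did), again by both tools, and Dnaja1 had an unadjusted p under 0.05. Kdm5b 2C samples held 25.0 to 68.1 TPM of Dnaja1 and control 2C samples 39.7 to 77.4 TPM, with 4 of 6 Kdm5b samples below all controls, and the difference was -0.43 ± 0.21 (adjusted p = 0.514). All 8 estimates were below 0, as were 50.3% of those of all genes, with a median of -0.38 against -0.0028 over all genes, and the intervals were wide, from -1.23 to 0.07 for Hsp90ab1 and from -1.26 to 1.12 for Hspa1b. With the index strip as a covariate the difference of Hsp90aa1 was -0.63 ± 0.16 (adjusted p = 0.0476), compared with -0.23 ± 0.24 without it, so by adjusted p alone it passed in that fit. In the same fit the estimates of Hspa1b (0.33) and Hspb1 (0.041) were above 0. Within strip 11 alone, chosen after seeing the data, it was -0.80 ± 0.19 (adjusted p = 0.0639, 3 control and 5 Kdm5b samples). In those samples controls held 808 to 1218 TPM and Kdm5b samples 352 to 650 TPM. Strip and injection are unevenly combined, and the part of the strip was not tested further.

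The stage difference itself was then compared between the injections. In the interaction fit over all 35 samples 0 members passed by adjusted p (0.109% of 13778 genes did), by edgeR and by DESeq2, and 0 had an unadjusted p under 0.05 in edgeR. The estimates ran from -1.44 ± 0.86 for Hspb1 to 0.08 ± 0.55 for Hspa1b. The interval of 2 standard errors was -0.61 to 0.35 for Hsp90aa1 and -0.68 to 0.10 for Dnaja1. The 5 members past both thresholds in Kdm5b embryos and the 3 in controls are therefore not shown to differ between injections.

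The other genes of the chaperone system were taken from 9 lists with 108 genes. In the control stage comparison 84 were tested, of which 22 fell and 8 rose past both thresholds, with a median change of -0.35. That is 26.2% lower and 9.52% higher, against 13% and 9.2% of all genes tested, so the share that rose was close to that of all genes. In Kdm5b embryos 85 were tested, with 22 lower (25.9%, against 16% of all genes) and 8 higher (9.41%, against 10.5%).

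Among other HSP70 genes 2 of 10 tested fell and 1 rose. Hspa4 and Hsph1 are HSP110-type exchange factors for HSP70. Hspa4 had a median of 82.4 TPM in control zygotes and 26.7 TPM in control 2C samples (-1.47 ± 0.12, adjusted p = 4.80e-10). Hsph1 went from 151 to 54.9 TPM (-1.29 ± 0.15). Hspa2, the HSP70 known from male germ cells, rose from a median of 12.3 to 61.7 TPM (2.79 ± 0.27, edgeR adjusted p = 5.19e-09). Its levels were 5.25 to 18.9 TPM in control zygotes and 27.4 to 162 TPM in control 2C samples.

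Of 2 further HSP90 genes Trap1, the mitochondrial HSP90, fell (-1.81 ± 0.20). Of 15 HSP90 co-chaperones tested 3 fell and 0 rose past both thresholds. They were Cdc37, which brings kinases to HSP90 (-1.42 ± 0.13), the immunophilin Ppid (-1.80 ± 0.19), and the ubiquitin ligase Stub1 (-1.06 ± 0.18). Among 15 co-chaperones 5 were higher and 7 lower by adjusted p alone. In Kdm5b embryos the change of Stub1 was -0.51, under the fold threshold.

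The exchange factors of HSP70 held the widest spread of changes. Bag3, which links HSP70 to small heat shock proteins, was at 0 to 3.48 TPM in control zygotes and 1.30 to 61.1 TPM in control 2C samples, with medians of 0.532 and 20.5 TPM. The difference was 4.70 ± 0.69 in controls (adjusted p = 2.71e-06) and 3.77 in Kdm5b embryos. Bag5 rose by 1.37 ± 0.21, and Sil1, an exchange factor of the endoplasmic reticulum, fell by 1.12 on the log2 scale. Of 2 other small heat shock protein genes tested, Hspb6 rose (1.28 ± 0.30, adjusted p = 9.10e-04).

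Of 10 other DNAJA and DNAJB genes tested, 3 fell (Dnajb2, Dnajb4 and Dnajb11, by 1.03 to 1.41) and 2 rose. Dnajb9, a J-domain protein of the endoplasmic reticulum, ranged from 14.0 to 24.9 TPM in control zygotes and from 50.7 to 181 TPM in control 2C samples. The difference was 2.58 ± 0.21 (edgeR adjusted p = 2.77e-10). Dnajb14 rose by 1.26 ± 0.50 in controls (edgeR adjusted p = 0.0371) and by 0.95 in Kdm5b embryos, under the fold threshold there. Dnajb11, at -0.86 in Kdm5b embryos, also lay under it there. Dnajb14 ranged from 4.00 to 9.89 TPM in control zygotes and from 0 to 53.1 TPM in control 2C samples. Of 24 DNAJC genes 8 fell, led by Dnajc2, Dnajc9 and Dnajc17, and 1, Dnajc27, rose (1.20 ± 0.43). Among the chaperonins 4 of 10 tested fell. Cct5, Cct2 and Cct8, subunits of the ring that folds actin and tubulin, stood at -1.41, -1.29 and -1.495. Cct6a, another ring subunit, rose from 1.97 to 20.7 TPM (3.85 ± 0.45, adjusted p = 9.91e-08).

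**Figure D4:**
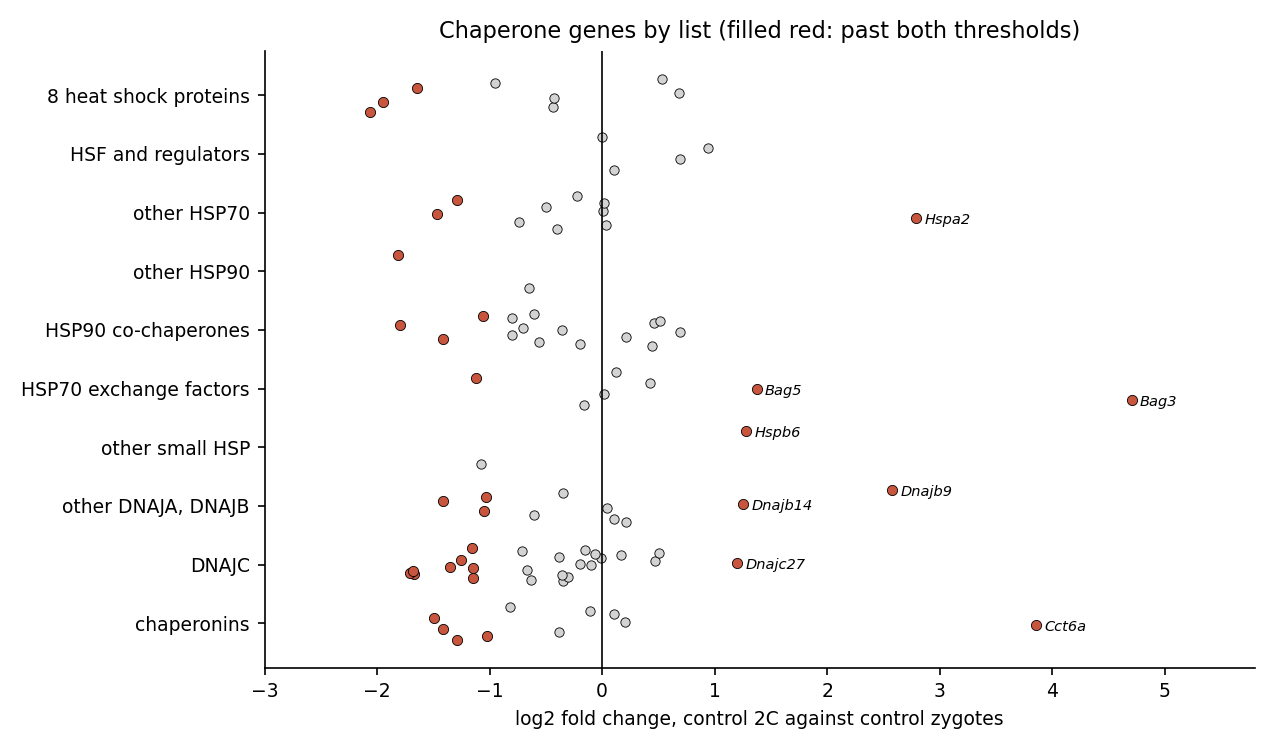
Log2 fold change between control 2C samples and control zygotes (horizontal axis) for each tested gene of the 8 members and of 9 lists of the chaperone system (rows; vertical offsets within a row only separate points). Red points are past both thresholds, and those above 1 are named; 22 listed genes lie on the left and 8 on the right.

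Of the heat shock factors and their regulators 0 of 4 tested passed both thresholds in controls by edgeR, and 2 were higher by adjusted p alone. These are named although they were chosen after their values were seen. Hsf1 ranged from 128 to 180 TPM in control zygotes and from 177 to 280 TPM in control 2C samples (0.69 ± 0.09, adjusted p = 8.26e-07), with overlap. Hsf2 went from a median of 4.14 to 8.25 TPM (0.94 ± 0.32, adjusted p = 0.0176), and in Kdm5b embryos its change of 1.05 ± 0.26 passed both thresholds.

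Lists of other stress responses were counted in the control stage comparison, where 9.2% of all genes rose and 13% fell past both thresholds. With 2 to 13 genes tested in a list, the counts are a description. Among 8 immediate early genes tested 2 rose, Jun from 0.705 to 14.5 TPM (5.30 ± 0.54) and Ier2 (2.80 ± 0.69), and Dusp1 fell by 1.09. Of 9 p53 targets 4 rose, including Sesn2 (2.94 ± 0.37) and Cdkn1a (2.62 ± 0.56). Of 10 oxidative stress genes 4 rose, including Hmox1 (2.30 ± 0.42) and Gpx1 (2.40 ± 0.43), and 0 fell past both thresholds. Of 13 genes of endoplasmic reticulum stress 2 rose (Eif2ak3 and Trib3) and 1, Pdia6, fell. Trib3 ranged from 0.267 to 2.80 TPM in control zygotes and from 0 to 20.8 TPM in control 2C samples. In Kdm5b embryos its change of 0.89 did not pass (edgeR adjusted p = 0.121). Of 2 cold-inducible genes 0 passed both thresholds in controls by edgeR, and 1 was lower by adjusted p. Since the 2C embryos alone came from thawed zygotes, a response to thawing and a property of the stage cannot be told apart in any of these lists.

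Members were then compared, among 2C samples of the same group, with the summed CPM of the 21 genes known from the 2-cell stage. That sum ran from 229 to 1145 CPM in control and from 266 to 669 CPM in Kdm5b 2C samples. Of 16 relations (8 members in 2 groups) 0 passed after adjustment. By a two-sided exact permutation test over 9 control 2C samples Hspa1b had Pearson's r of 0.76 (p = 0.0222, adjusted p = 0.124) and Spearman's rho of 0.45 (p = 0.230), and r fell to 0.38 without the 2 samples farthest from the median. Hspa1a (r = 0.72, rho = 0.50) dropped to 0.02 without the same 2 samples, which include replicate 5 with 1 fragment of each gene. Leaving out the ends of the range can lower r by itself, so what these relations rest on was not tested. Dnaja1 had r of 0.66 with all 9 samples (exact permutation p = 0.0464, adjusted p = 0.124) and 0.75 without those 2. In the 6 Kdm5b 2C samples Hsp90ab1 had r of -0.86 (exact permutation p = 0.0375, adjusted p = 0.124) and Hspa8 had -0.76 (exact permutation p = 0.0444, adjusted p = 0.124). Their rho values were -0.71 and -0.89, and without the 2 samples farthest from the median, which leaves 4, r was -0.21 and -0.55. Hspa8 had r of 0.70 in controls, which fell to 0.32 without the 2 farthest samples, and its opposite signs in the groups were not tested against each other. All points share the sample's own library, in which both measures are shares of one total.

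The genes most like each member were read from log2 CPM with the mean of each group removed, over 35 samples and among 9204 genes, as a description. Hsp90aa1 was most like Supt16 (r = 0.91) and Kif20b (0.89), Hsp90ab1 like Ecd (0.85) and Bard1 (0.85), and Dnajb1 like Srek1 (0.83) and Rufy1 (0.82). Hspa8 was most like Eif4a3 (0.79) and Spag5 (0.71). Dnaja1 was most like Hsph1, the HSP110 gene described above (0.72), and Ddx42 (0.70). The scarce members had D230025D16Rik and Mrps7 (0.76 and 0.75, for Hspa1b), Gm38425 and Nicn1 (0.73 and 0.71, for Hspb1) and Rgs3 and 2700054A10Rik (both 0.65, for Hspa1a). Among pairs of members Hsp90aa1 and Hsp90ab1 were the most alike (0.72), followed by Hsp90ab1 with Dnajb1 (0.64) and Hsp90aa1 with Dnajb1 (0.61), while Hspa1a and Hspa1b had 0.49. Index strip was not removed. In control 2C samples the medians in strips 11 and 12 were 882 and 431 TPM for Hsp90aa1, 889 and 444 for Hsp90ab1, and 153 and 107 for Dnajb1. Hspa1a, Hspa1b and Hspb1 had the lower median in strip 11. The part of the strip in these values was not tested.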

How the data were processed

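The authors trimmed reads with fastp 0.21.0, aligned them with STAR 2.7.3a to GRCm38 and counted read pairs per gene on the sense strand with featureCounts 1.5.1. The deposited values are these raw counts, with no normalization. Depth was 8705584 to 17797581 fragments per sample. The Kdm5b row, which includes injected mRNA, was removed before normalization.

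Groups followed the sample labels. Each comparison used edgeR 4.0.16 (TMM, filterByExpr with a minimum count of 10, quasi-likelihood test, Benjamini-Hochberg adjustment over all genes tested) in R 4.3.3, and DESeq2 1.42.0 was an alternative. The fits were tested on simulated data. SE is the log2 change over the square root of F. Levels are TPM over exon length. Permutation tests ran over all pairings with numpy 2.4.6, and scipy 1.17.1 gave ranks and Wilson intervals. Embryos of a group came from pooled females, so p-values measure the spread between samples.

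Members and lists were chosen with earlier results of these data known. Genes named beside the 8 members were at most 3 per list and direction with the smallest p past both thresholds in the control stage comparison, and the 2 genes most like each member. Index strips were inferred from index numbers.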

Additional observations from a re-analysis of the deposited data

Results flagged for a closer look

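By Dixon's test of the highest and lowest sample in each group, 2 values of the members stood apart in 32 tests of a member in a group, where chance flags about 5% of groups. Hspa1a was at 6.17 TPM (90 fragments) in Kdm5b zygote replicate 5, and the next zygote of that group was at 3.09 TPM. Without it the Hspa1a stage difference in Kdm5b embryos was 0.041 rather than -0.16 on the log2 scale. Dnajb1 was at 243 TPM (3207 fragments) in control 2C replicate 2, and the next sample of that group was at 153 TPM.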

How the results depend on the processing

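The count of members past both thresholds in the control stage comparison was 3, and 5 with no threshold on the fold. It was 4 with no filter on low counts. With Hspa1a and Hspa1b summed it was also 4, because the summed pair (-1.22) counts there for both genes. Hspa1a on its own did not pass. The other alternatives gave 3, and leaving out 1 sample at a time gave 3 to 4. In Kdm5b embryos the count was 5, with 4 to 6 over the alternatives and over samples left out. The summed pair counts for both genes there too. Past both thresholds the counts for injection and for the interaction were 0 in every alternative, as was the count of relations to the 2-cell gene level. By adjusted p alone Hsp90aa1 passed between injections in 2C samples with the strip as a covariate (-0.63, adjusted p = 0.0476 by edgeR). With the replicate number as a block the stage counts stayed at 3 and 5, while in 2C samples the Kdm5b difference turned to 0.70 for Hspa1b, 0.092 for Hspa1a and 0.19 for Hspb1. Same-numbered samples correlated at -0.27 to 0.16, so the numbers were not taken as pairs. With the strip as a covariate that difference was 0.33 for Hspa1b and 0.041 for Hspb1, and within strip 11 it was 0.84 and 0.66. In zygotes within single strips, chosen after seeing the data, the difference turned to -0.0055 (strip 8) and -0.0067 (strip 10) for Hspb1, 0.060 for Hspa1b and 0.25 for Hspa8 (strip 9), and 0.085 for Hsp90aa1 and 0.24 for Hsp90ab1 (strip 10). None of these passed, and the cause was not tested.

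Leaving out 1 sample at a time, the sign turned for Hspa1a between stages in Kdm5b embryos (-0.45 to 0.041), for Hspa1b (-0.23 to 0.025) and Hsp90ab1 (-0.061 to 0.027) between injections in zygotes, for Hspa1b in 2C samples (-0.24 to 0.23), and in the interaction for Hspa1b (-0.092 to 0.38) and Hsp90aa1 (-0.22 to 0.053). Hsp90ab1 in Kdm5b embryos fell under the fold threshold without Kdm5b zygote 5, 6, 9 or 10 or Kdm5b 2C 1, 4, 5 or 6 (range over all samples left out -1.25 to -0.87). Hspa8 passed it in controls without control 2C replicate 4 (-1.09) or 6 (-1.01), and Hspb1 passed both thresholds in Kdm5b embryos without Kdm5b zygote replicate 4 (-1.06). Of 404 other values of members, 383 kept direction and side of both thresholds together. By adjusted p alone Dnajb1 was lost in controls with single intact embryos only (-0.39, adjusted p = 0.0804 by edgeR). A mean of at least 50 counts left Hspa1a and Hspb1 untested, and low counts limit both.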
